A study of Mus musculus with 36 samples.

Results

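The 50 genes described here encode chemokine ligands and chemokine receptors of the mouse. They were chosen by symbol: every gene whose only annotated symbol starts with Ccl, Cxcl, Ccr or Cxcr and a number, together with Cx3cl1 and Xcl1, out of 18820 genes on the array with a symbol of their own. The fractalkine receptor gene Cx3cr1 is not among them. The members comprise 16 inflammatory CC ligands, 3 homeostatic or epithelial CC ligands, 5 CXC ligands of neutrophils, 3 CXC ligands of the interferon response, 7 other CXC, CX3C and XC ligands, 10 CC receptors and 6 CXC receptors.

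Their expression was measured in the hypothalamus of male C57BL/6 mice of about 20 g, killed 5 h after they were injected once intraperitoneally with 50 µl. Each mouse gave 1 array (Affymetrix Mouse Gene 1.1 ST), and each group had 6. The TNF group received 15 pg TNFα, the IL-6 Low group 50 pg IL-6 and the IL-6 High group 800 pg IL-6. Both cytokines were combined in the TNF + IL-6 Low group (15 pg and 50 pg) and in the TNF + IL-6 High group (15 pg and 800 pg), and Control mice received saline alone. Injection took place shortly before the dark phase in individually housed animals, and the single time point and the whole dissected tissue limit the model to what bulk RNA shows at that hour.

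Levels are log2 intensities, so a difference of 1 is a doubling. TNF replicate 4 stood apart, with a median correlation of 0.270 to the rest, while those of the remaining 35 arrays were 0.972 to 0.988. It was left out of all comparisons, as the study left out a TNF array, and the TNF group therefore has 5 arrays, replicates 1, 2, 3, 5 and 6. Of the 35 arrays kept, 6, 12, 11 and 6 carry the letters E, F, G and H in their array names. The hypothalamic neuropeptide genes Hcrt and Oxt reached 8.00 to 10.06 and 8.87 to 10.93 on the 35 arrays. Markers of neighbouring tissue varied between mice: the mean level of the pituitary markers ranged from 4.36 to 10.58 in TNF + IL-6 Low mice, against 4.32 to 5.79 in Control mice, and that of the cerebellar markers from 5.11 to 7.53 in TNF mice, against 4.97 to 5.21 in Control mice. Their part in the differences between groups was not tested.

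Chemokines are small secreted or membrane-bound proteins that direct the movement of leukocytes, and they are sorted into CC, CXC, CX3C and XC classes by the spacing of their first cysteines. They act through G protein-coupled receptors of the CCR, CXCR, CX3CR and XCR families. Many inflammatory ligands are induced by TNFα through the transcription factor NF-kB in endothelial cells, astrocytes and microglia, whereas Cxcl12 and Cx3cl1 are made in the uninflamed brain, and Cx3cl1 is a signal of neurons to microglia. Ccl2 encodes MCP-1, a monocyte attractant that the study also measured as a protein.

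Promoter sequence of the members was taken from RefSeq (GRCm38.p6) as windows of 300 bases, 250 before to 50 after each transcription start, and 38 windows belonged to 36 members. A match to the NF-kB consensus, searched on both strands, was present in 8 of these 38 windows (21.1%), against 4.51% of all 32851 windows. The 8 were those of Ccl9, Ccl20, Ccr3, Ccr6, Cxcl1, Cxcl2, Cxcl3 and Cxcl10. The STAT motif TTCNNNGAA, which is its own reverse complement, was found in 4 member windows (10.5%, against 8.30% of all), those of Ccl17, Ccr1l1, Ccr6 and Cxcl14. The core of the interferon-stimulated response element, GAAA and GAAA with 2 bases of any kind between, was found on either strand in 3 (7.90%, against 3.44%), those of Ccl19, Cxcl10 and Cxcl14. A match is a string of letters and says nothing of whether a factor bound there. The 250 bases before the start are printed as examples for 4 of the ligand genes with the NF-kB consensus, with the match in capitals. Cxcl1 lies at chr5:90890995-90891244 on the plus strand, Cxcl3 at chr5:90785851-90786100 on the plus strand, Ccl20 at chr1:83116516-83116765 on the plus strand and Cxcl10 at chr5:92348890-92349139 on the minus strand. The match begins 71 bases before the start in Cxcl1, 73 in Cxcl3 and 80 in Ccl20, and Cxcl10 holds a pair that begins 159 and 103 bases before it. In Cxcl1 and Cxcl3 the matches of both strands overlap into 1 run of 11 bases.
Cxcl1: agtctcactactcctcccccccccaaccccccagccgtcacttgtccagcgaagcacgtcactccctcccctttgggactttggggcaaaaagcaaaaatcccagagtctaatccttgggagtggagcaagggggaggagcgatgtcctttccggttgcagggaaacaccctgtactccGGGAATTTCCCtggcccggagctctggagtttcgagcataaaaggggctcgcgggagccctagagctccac
Cxcl3: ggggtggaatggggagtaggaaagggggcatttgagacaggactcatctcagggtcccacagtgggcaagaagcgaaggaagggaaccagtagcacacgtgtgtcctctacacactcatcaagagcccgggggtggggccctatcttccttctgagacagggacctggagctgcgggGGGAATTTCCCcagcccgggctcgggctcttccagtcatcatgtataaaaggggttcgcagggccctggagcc
Ccl20: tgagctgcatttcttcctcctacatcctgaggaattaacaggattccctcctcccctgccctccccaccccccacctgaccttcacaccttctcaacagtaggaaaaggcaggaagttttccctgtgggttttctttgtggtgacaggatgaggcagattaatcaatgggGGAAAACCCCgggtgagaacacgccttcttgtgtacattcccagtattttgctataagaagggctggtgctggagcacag
Cxcl10: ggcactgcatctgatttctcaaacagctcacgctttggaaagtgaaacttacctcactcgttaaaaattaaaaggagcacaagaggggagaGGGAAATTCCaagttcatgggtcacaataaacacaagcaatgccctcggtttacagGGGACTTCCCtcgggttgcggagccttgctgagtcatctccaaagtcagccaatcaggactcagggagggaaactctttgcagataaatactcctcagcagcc

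A gene was tested only if its intensity was over 20, or 4.32 on the log2 scale, on at least 3 of the 35 arrays, which 15049 genes and 31 of the 50 members met. Among the receptors, 3 of 10 CC receptors (Ccr7, Ccr9 and Ccr10) and 3 of 6 CXC receptors (Cxcr1, Cxcr3 and Cxcr4) did so. Among the ligands, 13 of 16 inflammatory CC ligands, 3 of 3 homeostatic or epithelial CC ligands, 2 of 5 neutrophil ligands (Cxcl1 and Cxcl3), 1 of 3 interferon-response ligands (Cxcl9) and 6 of 7 other ligands passed. The 19 members below it were Ccl4, Ccl8, Ccl12, Ccr1, Ccr1l1, Ccr2, Ccr3, Ccr4, Ccr6, Ccr8, Cxcl2, Cxcl5, Cxcl10, Cxcl11, Cxcl15, Cxcl16, Cxcr2, Cxcr5 and Cxcr6. Of these, Cxcl16 exceeded the minimum on 2 arrays and the others on none. The monocyte receptor gene Ccr2 lay between 2.17 and 3.07 on the 35 arrays and the neutrophil receptor gene Cxcr2 between 2.49 and 3.15, so their levels may hold little beyond background.

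**Figure D1:**
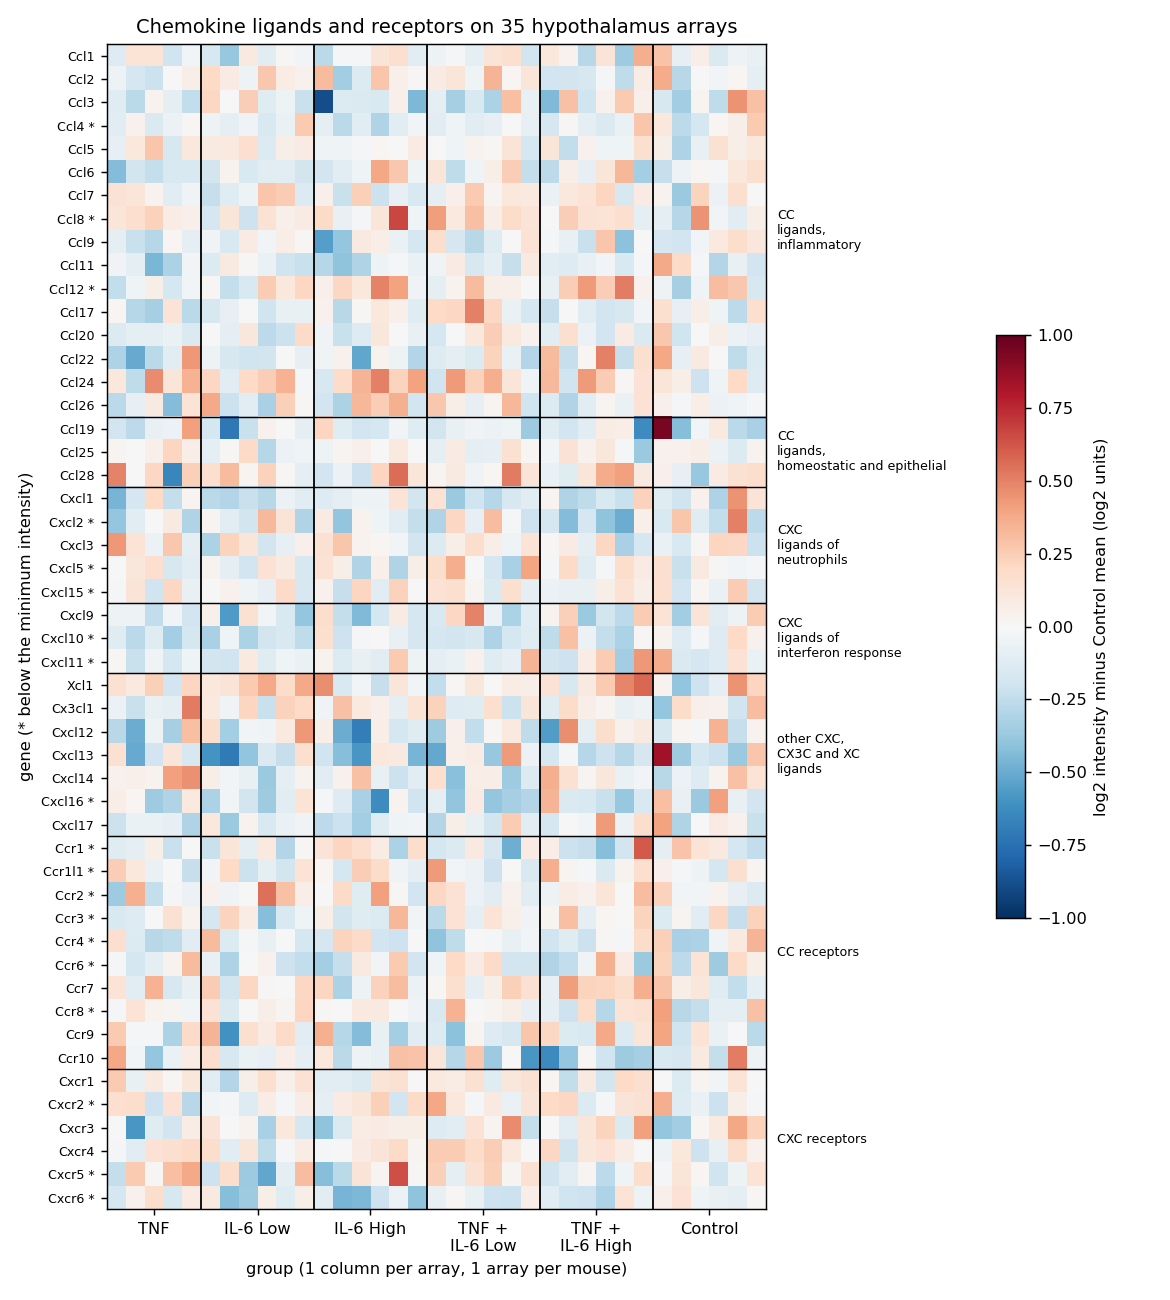
Level of each of the 50 members on each of the 35 arrays (columns, by group), as log2 intensity minus the mean of the 6 Control arrays (colour, log2 units), with members grouped by role and those below the minimum intensity starred. No block of members is of 1 colour throughout a treated group, and the darkest cell is Ccl19 in Control replicate 1, whose level was 6.52.

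None of the 31 tested members was called in a treated group, nor was any of the 15049 genes: 0 members and 0% of genes reached an adjusted p under 0.05 against Control in each of the 5 comparisons (limma, Benjamini-Hochberg over all genes tested). All 5 comparisons share the 6 Control arrays. At an unadjusted p under 0.05 there was 1 member in TNF mice (Ccl6, lower), against 5.29% of all genes in either direction. There were 0 members in IL-6 Low mice, against 1.4% of all genes, and 0 in IL-6 High mice, against 2.07%. There was 1 in TNF + IL-6 Low mice (Cxcr4, higher), against 9.58%, and there were 2 in TNF + IL-6 High mice (Ccr10, lower, and Ccr7, higher), against 2.05%. No tested member had a range on the treated arrays apart from its range on the Control arrays, against shares of all genes of 0.246% after TNF, 0.0664% after IL-6 Low, 0.0332% after IL-6 High, 0.193% after TNF + IL-6 Low and 0.159% after TNF + IL-6 High.

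The intervals give the precision of each difference, before any adjustment over all genes. The median standard error of a member's log2 difference from Control was 0.11, and the 95% interval reached a median of 0.23 to either side in TNF mice and 0.22 in the other groups. Data were simulated for TNF against Control with independent noise, over 15049 genes, of which 100 were changed by 0.5 and 100 by 1 (log2). Of these, 77% and 99% were called. With no gene called in the measured data, a call there needed a smaller unadjusted p than in the simulation. The median SD between mice of a group was 0.165 for all genes tested, against 0.193 for the tested members. The simulated shares may thus be too high for the members. The members' differences ran from -0.23 to 0.20 in TNF mice, from -0.32 to 0.24 in IL-6 Low mice, from -0.29 to 0.25 in IL-6 High mice, from -0.16 to 0.17 in TNF + IL-6 Low mice and from -0.32 to 0.23 in TNF + IL-6 High mice. Their medians were -0.04 after TNF (all genes 0.01), -0.03 after IL-6 Low (all genes -0.01), -0.03 after IL-6 High (all genes 0.00), -0.00 after TNF + IL-6 Low (all genes -0.02) and -0.00 after TNF + IL-6 High (all genes -0.02). With all 36 arrays the median in TNF mice was 0.16, and without Control replicate 2 it was -0.11.

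**Figure D2:**
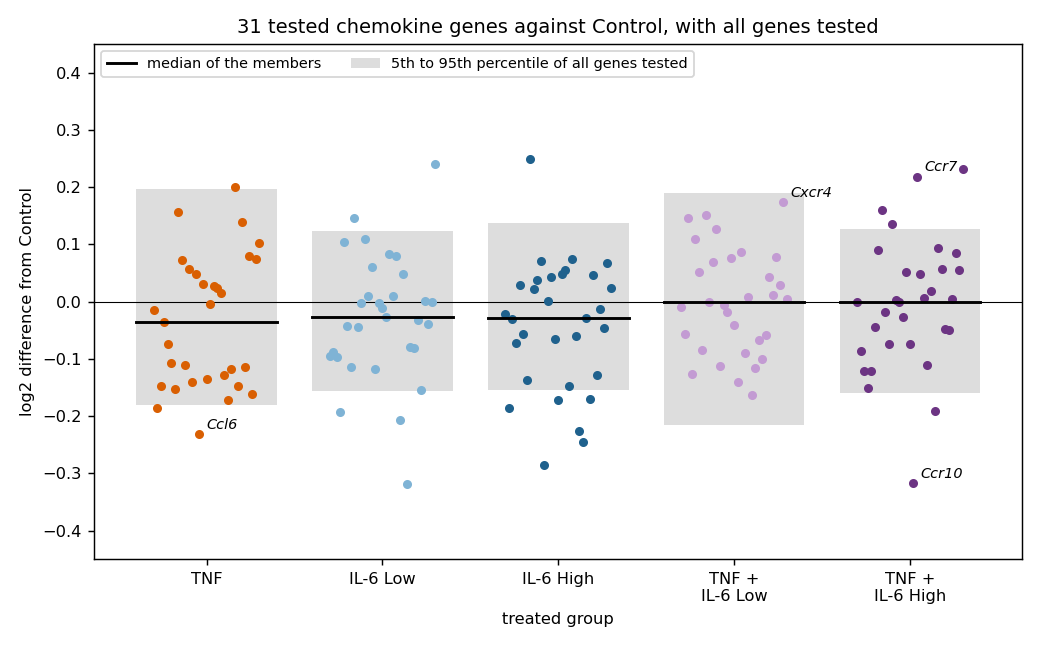
Log2 difference from Control of the 31 tested members (points) in each treated group, with the median of the members (line) and the 5th to 95th percentile of all genes tested (grey band). The named points are the 4 members with an unadjusted p under 0.05, and the members' medians lie between -0.04 and -0.00.

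Of the 31 members, 13 were higher than Control at any size in TNF mice (55.4% of all genes were), 11 in IL-6 Low mice (45.9%), 13 in IL-6 High mice (52.6%), 15 in TNF + IL-6 Low mice (44.1%) and 15 in TNF + IL-6 High mice (37.7%). The same count was 13 in the mean of the 5 treated groups (46.1%), 20 for the main effect of TNFα (45.8%) and 12 for that of the high IL-6 dose (35.8%). Neither the mean of the 5 treated groups against Control nor the main effects of the cytokines called a member. The mean had 0 members past the adjusted threshold and 0 with an unadjusted p under 0.05 (3.08% of all genes), with member differences from -0.19 to 0.17. The contrast of the 3 groups with TNFα minus the 3 without it had 0 and 0 (5.99% of all genes unadjusted), with differences from -0.16 to 0.10. The contrast of the IL-6 High groups minus the groups without IL-6 also had 0 and 0 (1.97% unadjusted), with differences from -0.16 to 0.13.

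Ccl2, the gene for the monocyte attractant MCP-1, was near the minimum intensity in every group. It lay at 4.29, 4.18, 4.13, 4.35 and 4.40 in the 5 TNF mice. Its lowest, median and highest levels were 4.29, 4.42 and 4.61 in IL-6 Low mice, 4.00, 4.38 and 4.66 in IL-6 High mice, 4.30, 4.45 and 4.68 in TNF + IL-6 Low mice, 4.09, 4.17 and 4.42 in TNF + IL-6 High mice and 4.07, 4.33 and 4.71 in Control mice. The groups overlapped, with no treated mouse above the highest Control mouse. Two-sided exact permutation tests against Control gave a difference of -0.07 after TNF (adjusted p = 0.703), 0.10 after IL-6 Low (0.523), 0.03 after IL-6 High (0.851), 0.11 after TNF + IL-6 Low (0.523) and -0.12 after TNF + IL-6 High (0.523), with adjustment over the 5. The design could reach a p no smaller than 0.00433 for TNF and 0.00216 for the others.

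**Figure D3:**
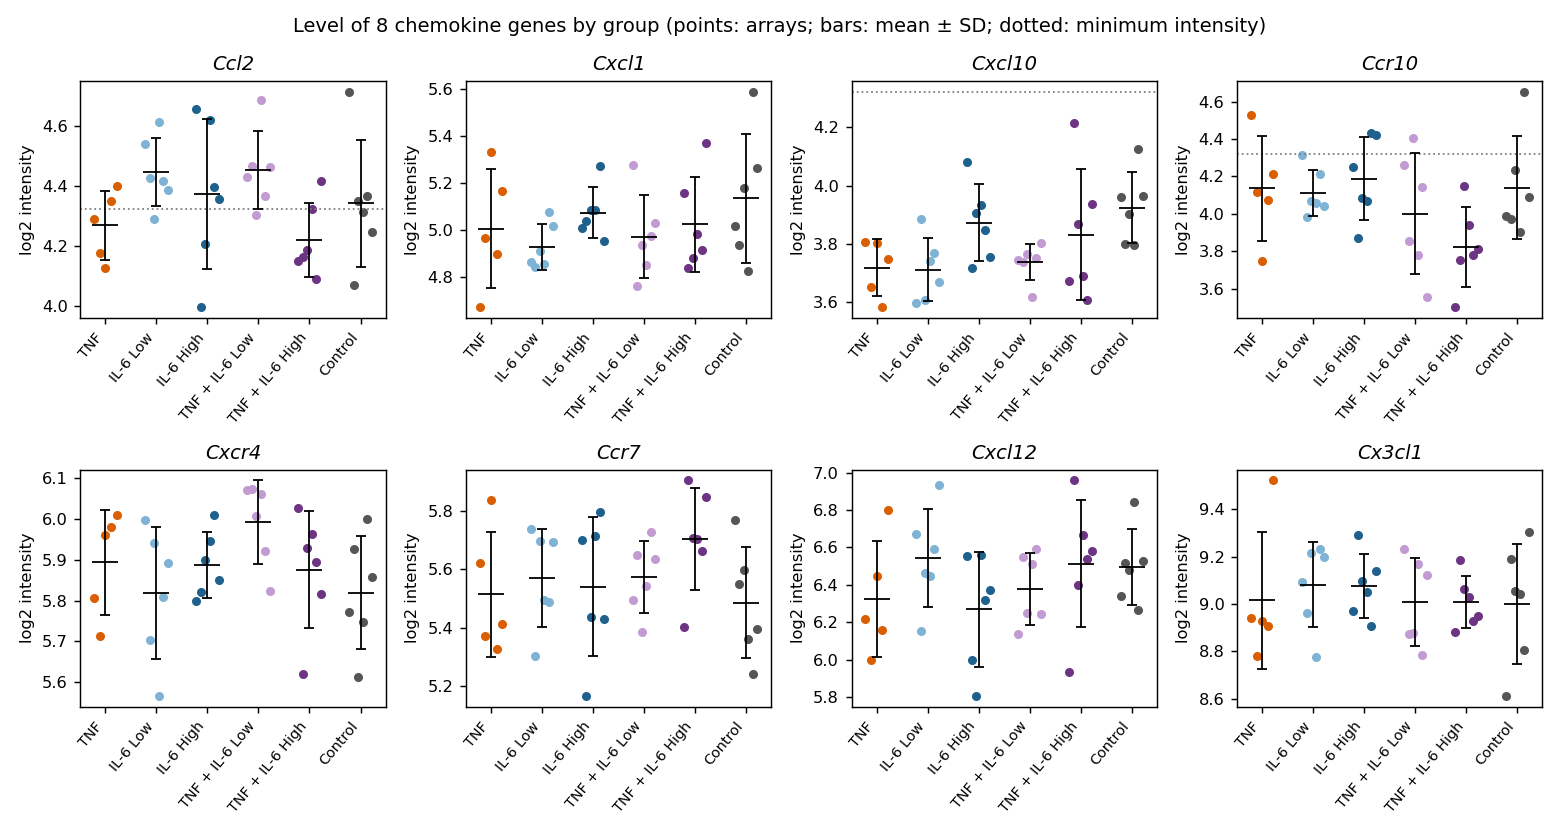
Log2 intensity of 8 members on each array (points), with the mean ± SD of each group (bars; n = 5 for TNF, 6 otherwise) and the minimum intensity (dotted). For each of the 8 genes the arrays of every treated group overlap those of Control, as for Ccl2, whose Control arrays lay between 4.07 and 4.71.

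Among the inflammatory CC ligands, Ccl2 included, which recruit monocytes, eosinophils and T cells, no member passed the adjusted test. In TNF mice 3 of the 13 tested were higher than Control and 10 lower (median -0.11, against 0.01 for all genes). The number higher was 4 after IL-6 Low (median -0.01), 5 after IL-6 High (-0.03), 6 after TNF + IL-6 Low (-0.01) and 4 after TNF + IL-6 High (-0.03). Ccl6, a ligand of macrophages, lay at 4.26, 4.50, 4.45, 4.54 and 4.53 in TNF mice, and at 4.46, 4.69 and 4.85 (lowest, median and highest) in Control mice. TNF replicates 1 and 3 lay below every Control array and the other 3 inside the Control range, and the difference was -0.23 (SE 0.11, adjusted p = 0.911). The eotaxin gene Ccl24 lay at 3.77, 4.20 and 4.43 in IL-6 High mice and at 3.72, 3.93 and 4.12 in Control mice, a difference of 0.25 (SE 0.12, adjusted p = 1.00).

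The differences of Ccl24 were 0.16 after TNF, 0.15 after IL-6 Low, 0.25 after IL-6 High, 0.15 after TNF + IL-6 Low and 0.16 after TNF + IL-6 High, but it exceeded the minimum intensity on only 5 of the 35 arrays, none of them Control. It thus entered the test through treated arrays alone, and nothing is read from these differences. Ccl11, another eotaxin gene, was measured over the minimum on all 35. It lay at 4.76, 4.70, 4.33, 4.47 and 4.76 in TNF mice, at 4.39, 4.61 and 4.77 in IL-6 High mice and at 4.50, 4.75 and 5.16 in Control mice. Its difference was -0.19 in both TNF mice (SE 0.10, adjusted p = 0.911) and IL-6 High mice (SE 0.10, adjusted p = 1.00), and without Control replicate 1 it was -0.11 in both.

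Ccl3, which encodes the macrophage inflammatory protein MIP-1α, lay at 3.62, 4.36 and 4.56 in IL-6 High mice and at 4.15, 4.44 and 4.95 in Control mice. The low mean of IL-6 High mice rested in part on replicate 1, the lowest value: the difference was -0.29 (SE 0.14, adjusted p = 1.00), and -0.17 without that array. Ccl17, a ligand of T helper cells, lay at 4.76, 5.13 and 5.44 in TNF + IL-6 Low mice and at 4.67, 4.94 and 5.10 in Control mice. In TNF mice its 5 values were 4.95, 4.65, 4.60, 5.07 and 4.66, of which 3 lay below the lowest Control array. Its difference was 0.15 in TNF + IL-6 Low mice and -0.15 in TNF mice, neither of which passed. Ccl5, which encodes the T cell attractant RANTES, differed from Control by -0.01 to 0.06 in the 5 groups.

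In the test for departure from additive effects of TNFα and IL-6, 0 members and 0 genes passed at an adjusted p under 0.05. The members at an unadjusted p under 0.05 were Ccl17 and Xcl1, 2 of 31, against 2.65% of all genes (limma F test, adjusted p = 0.997 for both). Xcl1 exceeded the minimum intensity on only 3 arrays, all from treated mice, so nothing is read from its result.

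The CXC ligands of neutrophils and of the interferon response, which include Cxcl1, Cxcl3 and Cxcl10 of the promoters printed above, had no member that passed. The remaining printed promoter is that of Ccl20, an inflammatory CC ligand, which differed from Control by -0.11 (TNF) to 0.05 (TNF + IL-6 Low). Cxcl1, the neutrophil attractant KC, lay at 4.67, 4.97, 5.33, 4.90 and 5.17 in TNF mice. In IL-6 Low mice it lay at 4.84, 4.89 and 5.08, and in Control mice at 4.82, 5.10 and 5.59. The whole IL-6 Low group lay inside the Control range, and Control replicate 5 held the highest Control value. The differences from Control were -0.13 after TNF, -0.21 after IL-6 Low, -0.06 after IL-6 High, -0.16 after TNF + IL-6 Low and -0.11 after TNF + IL-6 High, with the smallest unadjusted p in IL-6 Low mice (SE 0.11, adjusted p = 1.00), where it was -0.12 without that array. Cxcl3 differed by -0.05 to 0.14.

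Cxcl10, the interferon-induced T cell attractant IP-10, stayed below the minimum on all 35 arrays. It lay at 3.81, 3.65, 3.80, 3.58 and 3.75 in TNF mice, at 3.60, 3.71 and 3.89 in IL-6 Low mice and at 3.62, 3.75 and 3.80 in TNF + IL-6 Low mice. Control mice lay at 3.80, 3.93 and 4.12. Most arrays of these 3 groups lay at or below the lowest Control array, and none was above the Control median. Cxcl10 differed from Control by -0.21 after TNF, -0.21 after IL-6 Low, -0.05 after IL-6 High, -0.19 after TNF + IL-6 Low and -0.09 after TNF + IL-6 High, at a level where the values may hold little beyond background. With no minimum intensity all 50 members were tested and 0 passed at an adjusted p under 0.05. In that fit some of the 19 members below the minimum had an unadjusted 95% interval apart from 0 in a treated group. They were Cxcl10 in the 3 groups given in full and Cxcr6 in IL-6 High mice (-0.28, SE 0.10). The others were Cxcl2 (-0.27, SE 0.13) and Ccl12 (0.23, SE 0.11) in TNF + IL-6 High mice. The share of all genes was not taken in that fit, and nothing is read from these members. Cxcl9, a related T cell attractant, exceeded the minimum on 4 arrays and differed by -0.15 to 0.01, and Cxcl2, a neutrophil attractant, differed by -0.27 to -0.02 below the minimum.

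The ligand genes of the uninflamed brain were measured on all 35 arrays above the minimum. Cx3cl1, the neuronal ligand fractalkine, lay at 8.94, 8.78, 8.93, 8.91 and 9.52 in TNF mice. In the same order of lowest, median and highest it lay at 8.78, 9.15 and 9.23 in IL-6 Low mice, 8.91, 9.07 and 9.29 in IL-6 High mice, 8.78, 9.0 and 9.23 in TNF + IL-6 Low mice, 8.88, 8.99 and 9.19 in TNF + IL-6 High mice and 8.61, 9.05 and 9.31 in Control mice. The groups overlapped almost wholly, with TNF replicate 6 above the rest, and the differences from Control were 0.01 after TNF, 0.08 after IL-6 Low, 0.07 after IL-6 High, 0.01 after TNF + IL-6 Low and 0.01 after TNF + IL-6 High. Its receptor gene Cx3cr1, which marks microglia and is no member, differed by 0.10 after TNF, 0.03 after either dose of IL-6 alone, -0.07 after TNF + IL-6 Low and -0.08 after TNF + IL-6 High.

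Cxcl12, which encodes the ligand of the receptor Cxcr4 and holds leukocytes at vessel walls, lay at 6.22, 6.00, 6.45, 6.16 and 6.80 in TNF mice. It lay at 6.15, 6.53 and 6.93 in IL-6 Low mice, 5.81, 6.35 and 6.56 in IL-6 High mice, 6.14, 6.38 and 6.59 in TNF + IL-6 Low mice, 5.93, 6.56 and 6.96 in TNF + IL-6 High mice and 6.26, 6.50 and 6.85 in Control mice. The groups overlapped, and the lowest of all arrays were IL-6 High replicate 3 and TNF + IL-6 High replicate 1. The level differed from Control by -0.17 after TNF, 0.05 after IL-6 Low, -0.23 after IL-6 High, -0.12 after TNF + IL-6 Low and 0.02 after TNF + IL-6 High, none of which passed, and that of IL-6 High mice was -0.13 without IL-6 High replicate 3.

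Endothelial marker genes had negative differences in the groups in which Cxcl12 had the lowest means: 8 of 9 tested lay below Control in TNF mice (median -0.17) and 9 of 9 in IL-6 High mice (median -0.19), while the median was 0.03 after IL-6 Low, 0.02 after TNF + IL-6 Low and -0.02 after TNF + IL-6 High, with no endothelial marker at an unadjusted p under 0.05. The mean level of the 9 markers ranged from 6.31 to 7.04 in TNF mice and from 6.26 to 7.04 in IL-6 High mice, against 6.54 to 7.12 in Control mice. Markers of pericytes and smooth muscle cells had negative medians in all 5 groups: -0.29 after TNF, -0.11 after IL-6 Low, -0.27 after IL-6 High, -0.36 after TNF + IL-6 Low and -0.12 after TNF + IL-6 High. Of these 9 markers, 5 were lower at an unadjusted p under 0.05 in TNF mice (Acta2, Myh11, Pdgfrb, Tagln and Vtn), 2 in IL-6 High mice (Anpep and Vtn) and 4 in TNF + IL-6 Low mice (Anpep, Pdgfrb, Tagln and Vtn). Their mean level ranged from 6.18 to 6.76 in TNF mice, 6.02 to 7.02 in IL-6 Low mice, 6.17 to 6.72 in IL-6 High mice, 6.42 to 6.64 in TNF + IL-6 Low mice and 6.32 to 6.92 in TNF + IL-6 High mice, against 6.38 to 7.27 in Control mice. The 10 meningeal markers likewise had medians of -0.41 after TNF, -0.26 after IL-6 Low, -0.60 after IL-6 High, -0.39 after TNF + IL-6 Low and -0.14 after TNF + IL-6 High, with 4 lower at an unadjusted p under 0.05 in IL-6 High mice (Col1a2, Dcn, Fmod and Igf2) and 1 in TNF + IL-6 Low mice (Fmod). The shares of all genes at an unadjusted p under 0.05, in either direction, were 5.29% after TNF, 2.07% after IL-6 High and 9.58% after TNF + IL-6 Low. No marker of these lists passed the adjusted threshold. Their part in the differences of Cxcl12 and Ccl19 between groups was not tested. In bulk tissue, fewer cells of a type and less RNA per cell cannot be told apart.

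Cxcl14, a ligand of monocytes and dendritic cells, lay at 7.57, 7.58, 7.57, 7.94 and 7.99 in TNF mice and at 7.25, 7.52 and 7.82 in Control mice. TNF replicates 5 and 6 were above every Control array and the other 3 inside the Control range. The difference was 0.20 (SE 0.11, adjusted p = 0.911), and 0.14 without TNF replicate 6, while it was -0.08 after IL-6 Low, -0.03 after IL-6 High, -0.10 after TNF + IL-6 Low and 0.09 after TNF + IL-6 High. Xcl1, the ligand lymphotactin, exceeded the minimum on only 3 arrays, none of them Control, and so entered the test through treated arrays alone. It lay at 3.97, 4.08 and 4.24 in IL-6 Low mice, at 3.70, 4.06 and 4.43 in TNF + IL-6 High mice and at 3.47, 3.83 and 4.31 in Control mice. The differences of 0.24 (SE 0.12, adjusted p = 1.00) and 0.23 (SE 0.12, adjusted p = 1.00) did not pass.

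The homeostatic ligand genes Ccl19 and Cxcl13, which guide T and B cells in lymphoid tissue, had their spread within Control set in good part by 1 mouse. For Cxcl13 the SD was 0.47 in Control mice and 0.10 (TNF + IL-6 High) to 0.34 (TNF + IL-6 Low) in the treated groups. Cxcl13 lay at 4.17, 4.56 and 5.04 in IL-6 Low mice and at 4.50, 4.68 and 5.71 in Control mice, where the highest value was that of replicate 1. Its difference in IL-6 Low mice was -0.32 (SE 0.17, adjusted p = 1.00), and -0.15 without Control replicate 1. Ccl19 lay at 5.31 to 5.98 in TNF mice, 4.86 to 5.62 in IL-6 Low mice, 5.38 to 5.79 in IL-6 High mice, 5.21 to 5.54 in TNF + IL-6 Low mice and 4.94 to 5.65 in TNF + IL-6 High mice, and at 5.15, 5.43 and 6.52 in Control mice, with replicate 1 again the highest. The mean of the 5 treated groups differed from Control by -0.12, and by 0.07 without that mouse. The same Control mouse had the highest mean level of meningeal markers (7.60) and of pericyte and smooth muscle markers (7.27) of its group. Control replicate 4 had nearly the same levels (7.58 and 7.19). Its Ccl19 level lay only 0.10 above the Control mean, against 0.95 for replicate 1. Ccl19 has near-identical copies in the mouse genome and 5 transcript clusters on the array, so its level cannot be assigned to 1 copy. Ccl25, an epithelial ligand of T cell precursors, differed by -0.04 to 0.07, and Ccl28, another epithelial ligand, by 0.06 to 0.13 in the 5 groups.

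Among the receptors, Ccr10, which directs lymphocytes to epithelia, had the smallest unadjusted p among the tested members in the comparisons of a treated group with Control. It lay at 3.50, 3.80 and 4.15 in TNF + IL-6 High mice and at 3.90, 4.04 and 4.65 in Control mice. The difference was -0.32 (SE 0.14, adjusted p = 1.00; 0.803-fold), and 5 of the 35 arrays were over the minimum for this gene, none of them from TNF + IL-6 High mice. Elsewhere it differed by -0.00 after TNF, -0.03 after IL-6 Low, 0.05 after IL-6 High and -0.14 after TNF + IL-6 Low.

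Ccr7, the lymph node homing receptor bound by Ccl19, lay at 5.40, 5.70 and 5.90 in TNF + IL-6 High mice and at 5.24, 5.47 and 5.77 in Control mice, a difference of 0.22 (SE 0.11, adjusted p = 1.00; 1.16-fold). It was measured over the minimum on all 35 arrays, and its differences were positive in the other groups too, at 0.03 after TNF, 0.08 after IL-6 Low, 0.05 after IL-6 High and 0.09 after TNF + IL-6 Low. Cxcr4, the receptor for Cxcl12, lay at 5.82, 6.03 and 6.07 in TNF + IL-6 Low mice and at 5.61, 5.82 and 6.00 in Control mice. The upper TNF + IL-6 Low arrays were above all Control arrays and the lowest was close to the Control median. The difference was 0.17 (SE 0.08, adjusted p = 0.514; 1.13-fold), in a comparison in which 9.58% of all genes had an unadjusted p under 0.05, and it was 0.07 after TNF, -0.00 after IL-6 Low, 0.07 after IL-6 High and 0.06 after TNF + IL-6 High. Cxcr3, the receptor for Cxcl9 and Cxcl10, differed by -0.16 to 0.09.

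With the letter of the array name as a block, the differences of these 4 members were -0.20 for Ccl6, 0.17 for Cxcr4, -0.32 for Ccr10 and 0.22 for Ccr7, again with 0 members at an adjusted p under 0.05. Each letter holds as many Control arrays as arrays of each treated group other than TNF. The block therefore cannot move the differences of Cxcr4, Ccr10 and Ccr7, and their equality with the main fit is no check of it.

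Other genes of the chemokine system, named from a list of 25 that holds atypical receptors, further ligands and signalling partners, had no call either. In the mean of the 5 treated groups 4 of 16 tested had positive differences (46.1% of all genes did) and 12 negative ones, and 0 passed in any comparison. At an unadjusted p under 0.05, 4 of the 16 were lower in TNF + IL-6 Low mice, against 9.58% of all genes in either direction: Mif (-0.28), Pf4 (-0.28), Arrb1 (-0.17) and Gnai2 (-0.14). In the mean of the treated groups the smallest p values belonged to Xcr1, the receptor for Xcl1 (-0.18, SE 0.07, adjusted p = 1.00), to Pf4, a platelet and macrophage ligand (-0.17, SE 0.08, adjusted p = 1.00), and to Dpp4, a peptidase that trims chemokines (-0.22, SE 0.12, adjusted p = 1.00). Xcr1 differed by -0.34 in IL-6 High mice (SE 0.10, adjusted p = 1.00), the smallest unadjusted p of the list in a treated group, and Ccrl2, which binds chemerin, by -0.14 after TNF, -0.07 after IL-6 Low, -0.18 after IL-6 High, 0.02 after TNF + IL-6 Low and -0.11 after TNF + IL-6 High.

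Genes of the NF-kB response outside the chemokines, such as Nfkbia, Tnfaip3, Icam1 and Vcam1, likewise had 0 of 13 tested at an unadjusted p under 0.05 in each treated group. In TNF mice 10 were higher (55.4% of all genes were) and 3 lower, with a median of 0.03. Nfkbia, the inhibitor that NF-kB induces as its own brake, differed by -0.20 in TNF mice (SE 0.15), and Icam1, an adhesion molecule of activated endothelium, by 0.04 (SE 0.12).

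Markers of circulating leukocytes were low. For lymphocytes, 4 of 8 markers passed the minimum, and Cd3d, Cd79a and Ms4a1 did not. For neutrophils, 4 of 7 passed, and Retnlg and Elane did not. The mean level of the 4 neutrophil markers ranged from 4.26 to 5.44 in TNF mice, 4.08 to 4.57 in IL-6 Low mice, 4.10 to 5.22 in IL-6 High mice, 4.07 to 4.80 in TNF + IL-6 Low mice and 4.29 to 4.95 in TNF + IL-6 High mice, against 4.11 to 4.30 in Control mice. Their median difference was 0.51 in TNF mice, 0.34 in IL-6 High mice and 0.08 to 0.19 in the other groups. In TNF mice 3 of the 4 were higher than Control and 1 lower. The highest mean level in TNF mice was that of replicate 5 alone, with the next at 4.48 (replicate 2). At an unadjusted p under 0.05, 2 of the 4 were higher in TNF mice (S100a8 and S100a9, 0.55 and 0.52), against 5.29% of all genes in either direction. In TNF + IL-6 High mice 1 was higher (S100a9, 0.56), against 2.05%. The mean level of the 4 markers was below the minimum intensity on every Control array, so the markers may have entered the test mainly through treated arrays. Which arrays exceeded the minimum for each marker, and the differences without TNF replicate 5, are not given here. Nothing is therefore read from these differences. At an adjusted p under 0.05, 0 of these markers passed. Those of microglia and macrophages had a median of 0.03 after TNF, -0.01 after IL-6 Low, -0.03 after IL-6 High, -0.12 after TNF + IL-6 Low and 0.00 after TNF + IL-6 High.

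Between mice of the same group, the median residual SD was 0.193 for the 31 tested members and 0.165 for all genes tested. The most variable were Cxcl13 (0.319), Ccl19 (0.291) and Cxcl12 (0.273), and the least Ccl25 (0.119), Ccl5 (0.129) and Cxcr4 (0.129). To see what this variation went with, the deviations of the 20 tested members named here from their group means were set against those of 11 cell type marker scores over the 35 arrays. A score is the mean log2 level of a list of markers. Of 220 pairs, 5 passed an adjusted p under 0.05 for both Pearson's r and Spearman's rho (permutation within groups, 100000 draws, Benjamini-Hochberg over 220 pairs).

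Cxcl12 followed the endothelial score with r = 0.879 and rho = 0.819 (permutation p = 1e-05 for each, the smallest the draws can give, adjusted p = 0.0022). Within the arrays of letters E, F, G and H, r was 0.889, 0.934, 0.866 and 0.938, and it was 0.846 without the 2 arrays farthest from the median score. Leaving out each array in turn gave 0.857 to 0.899. Cxcl12 also followed the score of pericytes and smooth muscle cells with r = 0.673 and rho = 0.646 (permutation, adjusted p = 0.0022 and 0.0088), with r of 0.566, 0.811, 0.566 and 0.828 by letter and 0.752 without the 2 farthest arrays. The relation of Cxcl12 with the endothelial score thus held within each of the 4 sets of arrays.

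Cx3cl1 followed the neuronal score with r = 0.685 and rho = 0.647 (permutation, adjusted p = 0.0022 and 0.0099). The values by letter were 0.923, 0.532, 0.564 and 0.619, and r was 0.660 without the 2 farthest arrays. After quantile normalization of the arrays r was 0.572 with an adjusted p of 0.0839 by permutation, so that this relation did not pass under both scalings. Ccl19 followed the score of pericytes and smooth muscle cells with r = 0.684 and rho = 0.659 (permutation, adjusted p = 0.0187 and 0.0099), with 0.793, 0.622, 0.608 and 0.913 by letter and 0.545 without the 2 farthest arrays. It also followed the meningeal score with r = 0.605 and rho = 0.580 (permutation, adjusted p = 0.0451 and 0.0436). There the values by letter were uneven, at 0.763, 0.270, 0.296 and 0.701, r was 0.520 without the 2 farthest arrays, and after quantile normalization the adjusted p was 0.0678 (permutation, r = 0.596).

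**Figure D4:**
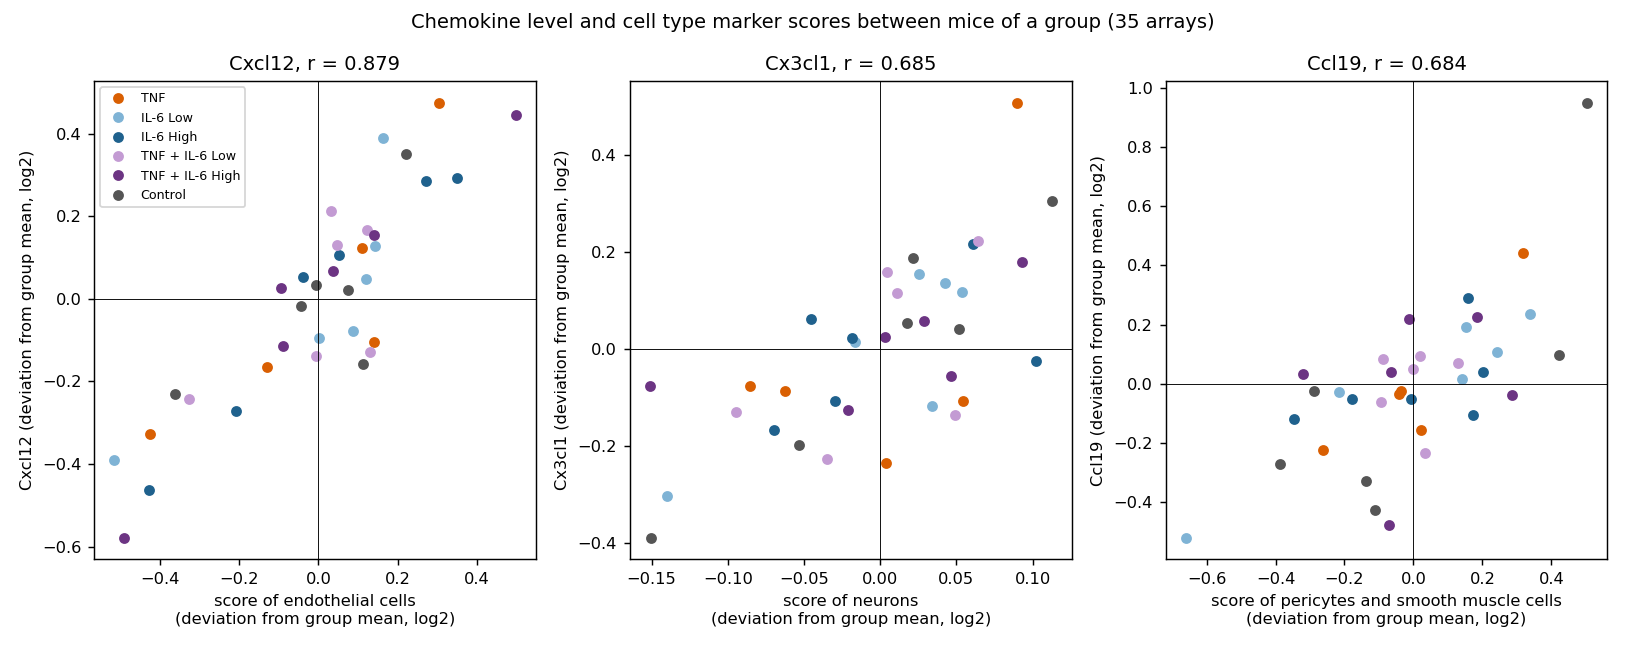
Deviation of the log2 level of Cxcl12, Cx3cl1 and Ccl19 from the group mean (vertical axes) against the deviation of the score of endothelial cells, neurons, and pericytes and smooth muscle cells (horizontal axes, log2), 1 point per array and coloured by group. For Cxcl12 r is 0.879 over the points of all 6 groups, with no slope fitted by group, and the highest point for Ccl19 is Control replicate 1.

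A pair of further relations passed by 1 measure only. Ccr7 followed the endothelial score with r = 0.611 (permutation, adjusted p = 0.0299) and an adjusted p of 0.10 for rho, and r was -0.184 within the arrays of letter H. Cxcl14 followed the microglial score with rho = 0.624 (permutation, adjusted p = 0.0211) and an adjusted p of 0.0657 for r = 0.550. None of the pairs with the pituitary, cerebellar, neutrophil or lymphocyte scores passed.

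No ligand was found to follow the gene of its receptor between mice of a group. For 6 pairs, chosen after the data were seen, r was -0.005 for Cxcl12 with Cxcr4, 0.236 for Ccl19 with Ccr7, 0.235 for Ccl28 with Ccr10, -0.225 for Ccl25 with Ccr9, -0.016 for Cxcl9 with Cxcr3 and 0.231 for Cx3cl1 with Cx3cr1. The adjusted p for r ranged from 0.361 to 0.979 (permutation within groups, adjusted over 6 pairs), and Spearman's rho from -0.335 to 0.227 with adjusted p from 0.377 to 0.859.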

How the data were processed

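Per the labels, the authors used RMA (version not given in the sources used here). The deposited table holds its log2 intensities for 35556 transcript clusters on 36 arrays, which entered without further scaling. Background correction and normalization by RMA had thus been applied to all arrays together, TNF replicate 4 included. Of the clusters, 21218 name 1 gene, 1881 several and 12457 none, and only the first were used. The cluster of highest mean stood for a gene with more than 1 (1386 genes, among them the members Ccl19 and Ccl25), which gave 18820 genes. A further 4 genes with chemokine ligand symbols lie only on clusters shared with other genes and are not analysed here.

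With R 4.3.3 and limma 3.58.1, the 15049 genes over the minimum intensity were fitted in 1 linear model of the 6 groups (lmFit, eBayes with an intensity trend), with Benjamini-Hochberg adjustment over all of them and a threshold of 0.05. Contrasts were each treated group and their mean against Control, the main effects of TNFα and of the high IL-6 dose, and an F test of departure from additive effects. The fit was tested on simulated data, where 9 unchanged genes were called. Ccl2 was also tested by exact permutation, and correlations by 100000 permutations within groups (Python 3.11.15, scipy 1.17.1). The number of arrays limits the precision.

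The members, gene lists and tests were chosen with earlier results of these data known. Members described in full are a short list of ligands and receptors, the 8 of highest mean and up to 3 of smallest p in each contrast except the F test. Other marker lists are those of choroid plexus and astrocytes, with which no named member passed. Alternatives were all 36 arrays, no minimum or one of 50, quantile normalization or centring of array medians, weights for arrays, fits limited to the groups compared, no intensity trend, the replicate number or the letter of the array name as a block, the mean of a gene's clusters, and each array left out in turn.

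Each array is of a separate mouse. For Control replicates 5 and 6 the labels and array names give different mouse numbers, while both call them Control. The labels call the TNF dose low, while the study gives 1 dose. All 50 symbols match RefSeq by Entrez ID.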

Additional observations from a re-analysis of the deposited data

Results flagged for a closer look

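Of 138 sets of arrays examined, 23 members in 6 groups, 9 (6.52%) held 1 array whose gap to its nearest neighbour was large for the range of its group. Chance gives about 1 in 20. The lone array was the highest for Cx3cl1 in TNF mice (replicate 6, 9.52) and for Ccl6 in IL-6 Low mice (replicate 2, 4.72). It was the lowest for Ccl19 in IL-6 Low mice (replicate 2, 4.86) and in TNF + IL-6 High mice (replicate 6, 4.94), and for Ccl25 in TNF + IL-6 High mice (replicate 6, 6.19). It was also the lowest for Ccl5 (replicate 4, 5.10) and Cxcl14 (replicate 4, 7.16) in IL-6 Low mice, and for Cxcl10 (replicate 4, 3.62) and Xcl1 (replicate 1, 3.62) in TNF + IL-6 Low mice. IL-6 Low replicate 4, IL-6 Low replicate 2 and TNF + IL-6 High replicate 6 each appear for 2 genes.

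On TNF replicate 4, which no comparison used, 46 of the 50 members lay above all 6 Control arrays, at 4.36 to 8.21 with a median of 5.92, against Control means of 2.43 to 9.0 with a median of 4.15. On the same array 8409 of all 18820 genes (44.7%) lay above all Control arrays. Its quartiles were 5.49 and 6.65, against 3.99 to 4.17 and 7.33 to 7.54 on the other 35 arrays.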

How the results depend on the processing

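The count of members called was 0 in each comparison under every alternative run, as was that of all genes. With all 36 arrays, the median log2 difference of the tested members was 0.16 in TNF mice against Control and -0.12 for the main effect of the high IL-6 dose. Leaving out 1 array in turn gave a median of -0.11 to 0.000742 in TNF mice, lowest without Control replicate 2 and highest without Control replicate 1. After quantile normalization the correlation of Cx3cl1 with the neuronal score was 0.572 (r) and that of Ccl19 with the meningeal score 0.596 (r), no longer past the threshold, while the other 3 were. The causes were not tested.

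With the replicate number as a block, the members' median was -0.02 after TNF, -0.03 after either dose of IL-6 alone and -0.00 after both combinations, with 0 called. Only the TNF group lacks an array of a number, so this block cannot move the differences of the other groups from Control. Their medians are by design those of the main fit and show nothing about the blocks. Same-numbered arrays had a mean correlation of deviations of 0.0612 (-0.312 to 0.584, 85 pairs, 36 of them over 0.1), against -0.0121 for other pairs, and 14 of 35 arrays correlated best with their own number. In the series each replicate number holds an array of every group, and all arrays of a number carry the same letter in their names. The numbers may thus be blocks, though the study does not describe them as such. The main fit did not use them, and these values do not settle whether it should have.

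Limits are the small groups, the single time point, whole tissue, levels near background for many members, and Control arrays shared by all comparisons.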
